A study of Mus musculus with 6 samples.

Results

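NF-κB is a family of dimeric transcription factors. The genes described here include its subunits Nfkb1, Nfkb2, Rela and Relb and its feedback inhibitors Nfkbia and Tnfaip3. The others are Nfkbiz, whose nuclear product modulates NF-κB targets, and the cytokine receptors Il1r1, Tnfrsf1a and Tnfrsf11b. All 10 genes were chosen by name, with earlier results of these data known. They were found among the 24421 rows of the deposited count table and passed the filter on low counts. The libraries come from mouse islets isolated from the pancreas, 3 titled HF_KO and 3 titled HF_CONT, all on a C57BL/6J background. The HF_KO genotype was C57.DhpsloxP.MIP1-CreERT, a floxed Dhps allele with a tamoxifen-inducible Cre driven by the mouse insulin promoter. Deletion is thereby directed to β cells, and the other islet cells keep the gene. MIP1-CreERT is known to carry a human growth hormone sequence. The HF_CONT genotype was given as control, and whether these mice carried Cre or the floxed allele, the tamoxifen schedule, the ages, and the meaning of HF were not given in the labels. Dhps encodes deoxyhypusine synthase, the enzyme that begins hypusine formation on eIF5A, a translation factor, and the series asks about this pathway in β cell proliferation.

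In resting cells NF-κB dimers are held in the cytoplasm by IκB proteins. Interleukin-1 and TNF receptors activate an IκB kinase that marks IκBα for destruction, which frees RelA-p50 dimers in the canonical branch. A slower, non-canonical branch acts through the kinase NIK and processing of the p100 product of Nfkb2 to p52, which pairs with RelB. The factors switch on their own inhibitors, which ends the response, and β cells are known for abundant interleukin-1 receptor and for their sensitivity to this cytokine.

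Libraries held 21027737 to 23249895 counts assigned to genes. Dhps did not separate the labels: it had 11.7, 12.7 and 11.4 CPM (counts per 1e+06, with library sizes scaled by TMM factors) in HF_KO, against 12.03, 13.4 and 12.3 CPM in HF_CONT. On the log2 scale HF_KO differed from HF_CONT by -0.07 ± 0.12 (SE, adjusted p = 0.742 in edgeR's quasi-likelihood test). The Dhps count sums over its 9 exons and over all islet cells, and 127 bp overlap Wdr83. Which exons were floxed is not in the labels. Directions below refer to the libraries labelled HF_KO. The labels do not say whether replicates came from different mice, and the p-values cover the spread among these 6 libraries, which may be technical. β cell markers dominated both groups, with 10 of them summing to between 393191 and 448052 CPM in HF_KO and between 366504 and 495401 CPM in HF_CONT, most of it from Ins1, Ins2 and Iapp, so the tissue label held. Of these 10 markers 8 were lower in HF_KO by fold change, with a median of -0.59 on the log2 scale. In edgeR 4 fell, Nkx6-1, Slc2a2, Ucn3 and Glp1r, picked for their values, beside 2.63% of all tested genes.

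Of the 10 genes, Nfkb2 rose in the libraries labelled HF_KO and the other 9 were not called. The share called among all 13736 tested genes was 6.76%, or 4.14% for calls in the upward direction. At an unadjusted p under 0.05 there were 4 genes, beside 26.5% of all tested genes at that level. Of the 4, Nfkb2 and the decoy receptor Tnfrsf11b were higher and Nfkbia and Nfkbiz lower in HF_KO. No member fell in edgeR's test or in limma-voom, which called 6.49% of all genes, while DESeq2, which called 12.4% of all genes, called Nfkbiz lower and Tnfrsf11b higher besides Nfkb2. The HF_KO and HF_CONT libraries did not overlap for 4 of the 10, where this held for 32.1% of all tested genes. The median log2 fold change of the 10 was -0.17, beside 0.01 for all tested genes, with 4 positive and 6 negative values. Fewer cells of a type and less RNA per cell cannot be told apart in whole islets.

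**Figure D1:**
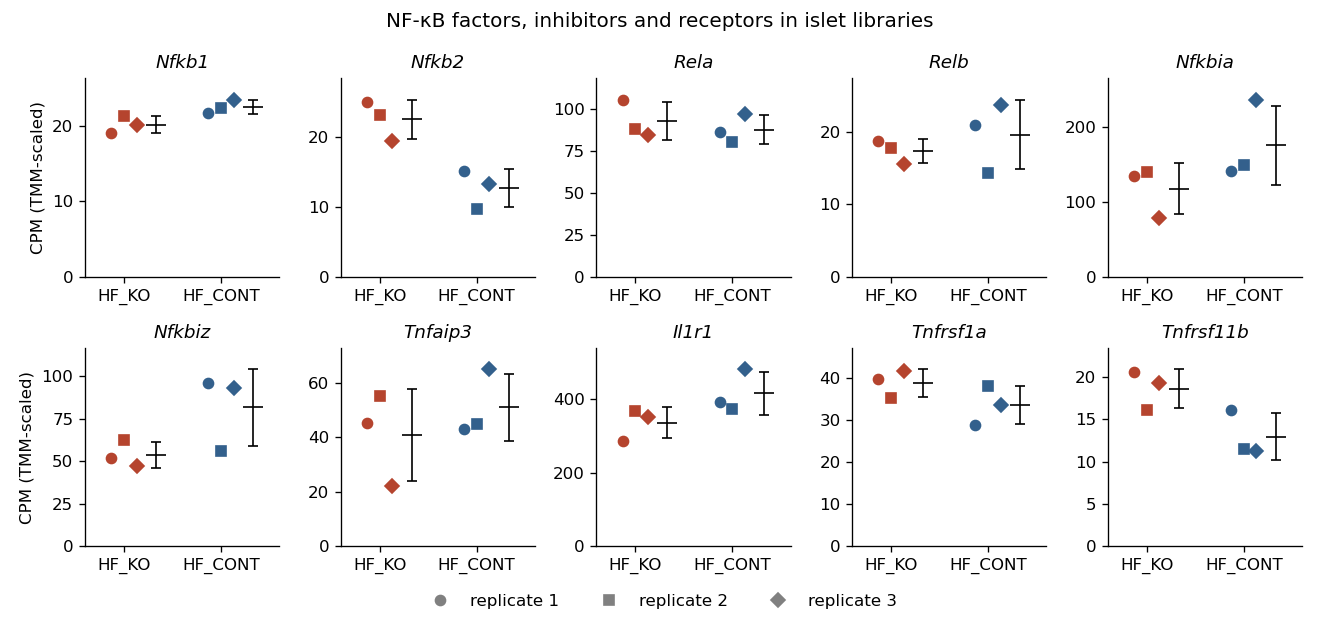
CPM (vertical axis, linear from 0) of each of the 10 genes in the 3 HF_KO libraries (left, red) and the 3 HF_CONT libraries (right, blue), with marker shape giving the replicate number, and the mean and SD in black. Nfkb2 lay at 19.4 CPM or above in HF_KO and at 15.1 CPM or below in HF_CONT, and for Nfkbia and Tnfaip3 the HF_KO replicate 3 was lowest and the HF_CONT replicate 3 highest.

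NF-κB is known to act on the genes of its own subunits and inhibitors, so promoters of the members were searched for its motif. RefSeq windows (GRCm38.p6, the assembly of mm10) of 300 bases, from 250 before to 50 after a transcript start, were at hand for 6 of the 10 genes. The windows at the deposited gene starts of Nfkb2 (chr19:46304487-46304786, plus strand), Nfkbia (chr12:55492598-55492897, minus strand) and Tnfaip3 (chr10:19015361-19015660, minus strand) are shown on the gene's strand, since they hold matches. Capitals mark matches to the κB consensus motif GGGRNNYYCC on either strand, with overlapping matches joined. In it R is A or G, Y is C or T and N is any base.
Nfkb2: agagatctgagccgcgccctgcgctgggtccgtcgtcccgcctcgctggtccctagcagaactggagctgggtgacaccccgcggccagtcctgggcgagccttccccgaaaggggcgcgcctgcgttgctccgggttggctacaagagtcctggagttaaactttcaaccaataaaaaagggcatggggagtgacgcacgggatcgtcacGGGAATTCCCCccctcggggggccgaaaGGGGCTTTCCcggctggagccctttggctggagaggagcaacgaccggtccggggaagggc
Nfkbia: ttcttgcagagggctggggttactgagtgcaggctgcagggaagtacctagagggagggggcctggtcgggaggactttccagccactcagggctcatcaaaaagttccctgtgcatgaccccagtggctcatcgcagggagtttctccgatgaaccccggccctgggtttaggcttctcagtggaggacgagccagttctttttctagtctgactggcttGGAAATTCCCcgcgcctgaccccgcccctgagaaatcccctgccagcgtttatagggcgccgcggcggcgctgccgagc
Tnfaip3: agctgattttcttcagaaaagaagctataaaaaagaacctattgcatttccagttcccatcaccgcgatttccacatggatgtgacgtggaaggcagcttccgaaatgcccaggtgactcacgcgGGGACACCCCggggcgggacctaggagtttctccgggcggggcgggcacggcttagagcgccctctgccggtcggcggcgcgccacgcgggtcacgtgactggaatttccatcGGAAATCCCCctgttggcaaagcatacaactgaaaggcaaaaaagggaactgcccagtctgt

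In Nfkb2 the marked stretches GGGAATTCCCC and GGGGCTTTCC began 39 and 11 bases before the start. In Nfkbia the stretch GGAAATTCCC began 29 bases before it, and in Tnfaip3 the stretches GGGACACCCC and GGAAATCCCC began 125 and 12 bases before it. Of 10 windows of the 6 genes, 6 held a match, and of all 32851 windows 8.46% did. Of these 6 windows 3 are of Nfkb2, and 2 of those overlap and share a match. Another was 1 of the 2 Il1r1 windows. The second Tnfaip3 window, the other Il1r1 window and those of Rela and Tnfrsf1a held none. A match describes letters only and is not evidence of binding. The 3 genes were shown because they carry such matches, and of them Nfkb2 was called and Nfkbia and Tnfaip3 were not.

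None of the 3 receptors was called. Il1r1, the signalling receptor for interleukin-1 (chromosome 1, 40225080 to 40316177 in mm10, 12 exons) had 288.0, 369.6 and 351.9 CPM in HF_KO, against 393.6, 374.0 and 482.6 CPM in HF_CONT. Every HF_KO library lay below every HF_CONT library, but HF_KO replicate 2 and HF_CONT replicate 2 were nearly level. Its log2 fold change was -0.31 ± 0.14 (SE, 95% interval -0.63 to 0.01, adjusted p = 0.206 in edgeR).

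Tnfrsf1a, the main signalling receptor for TNF (chromosome 6, 125349723 to 125362483, 10 exons), had 39.6, 35.1 and 41.5 CPM in HF_KO, against 28.9, 38.1 and 33.6 CPM in HF_CONT. The groups overlapped through HF_KO replicate 2 and HF_CONT replicate 2, and the log2 fold change was 0.21 ± 0.12 (SE, adjusted p = 0.308 in edgeR). Tnfrsf11b encodes osteoprotegerin, a secreted decoy receptor for RANK ligand, and lies on chromosome 15 from 54250619 to 54278484 with 5 exons. It had 20.5, 16.1 and 19.3 CPM in HF_KO, against 16.2, 11.5 and 11.3 CPM in HF_CONT. HF_KO replicate 2 fell just under HF_CONT replicate 1, and the other HF_KO libraries were above all HF_CONT libraries. The log2 fold change of Tnfrsf11b was 0.53 ± 0.16 (SE, adjusted p = 0.0787 in edgeR). It passed without HF_CONT replicate 1 (0.71, adjusted p = 0.0307 in edgeR) and in DESeq2 (0.52, adjusted p = 0.0491), and in the other alternatives it did not.

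Of the subunits, Nfkb2, which encodes the p100 precursor of p52, was the member that rose. Nfkb2 (chromosome 19, 46304737 to 46312090, 23 exons) had 24.9, 23.1 and 19.4 CPM in HF_KO, against 15.1, 9.75 and 13.3 CPM in HF_CONT. The 3 HF_KO libraries lay above the 3 HF_CONT libraries, with the narrowest gap between HF_KO replicate 3 and HF_CONT replicate 1. The mean was 22.5 ± 2.83 CPM in HF_KO and 12.7 ± 2.72 CPM in HF_CONT (SD, n = 3 each). That is a fold of 1.77, or 0.83 ± 0.17 on the log2 scale (SE, 95% interval 0.45 to 1.20, adjusted p = 0.0277 in edgeR). Its exons share 4 bp with Psd on the other strand, which averaged 532 counts over the 6 libraries.

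The Nfkb2 call depended on single libraries, while its direction was positive under all 16 alternatives, with log2 fold changes from 0.65 to 1.06. Its adjusted p in edgeR was 0.092 without HF_KO replicate 1, 0.0522 without HF_KO replicate 2, 0.0828 without HF_CONT replicate 2 and 0.0718 without HF_CONT replicate 3. With a score of acinar or of macrophage markers as a covariate the log2 fold change was 0.88 (adjusted p = 0.364 in edgeR) and 1.06 (adjusted p = 0.676 in edgeR). Macrophages express Nfkb2, and 12 macrophage markers summed to between 286.0 and 362.6 CPM in HF_KO and between 161.3 and 171.8 CPM in HF_CONT. All 12 had a higher mean in HF_KO and 7 rose, beside 4.14% of all tested genes, and none was at 0 in all libraries. Summed acinar and macrophage markers both separated the labels, so the covariate fits can hardly tell such cells from the label. The part of macrophages in the Nfkb2 difference was not tested.

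The other subunits were not called. Rela, the transactivating partner of the canonical dimer (chromosome 19, 5637490 to 5648130, 11 exons), had 105.4, 87.8 and 84.6 CPM in HF_KO, against 86.0, 80.2 and 96.7 CPM in HF_CONT. The groups overlapped widely, with an estimate of 0.08 ± 0.12 on the log2 scale (SE, 95% interval -0.18 to 0.34, adjusted p = 0.708 in edgeR). It was -0.03 without HF_KO replicate 1.

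Nfkb1, which encodes the p105 precursor of p50 (chromosome 3, 135584655 to 135691547, 25 exons), had 19.1, 21.3 and 20.2 CPM in HF_KO, against 21.8, 22.3 and 23.5 CPM in HF_CONT. All HF_KO libraries were below all HF_CONT libraries, though by little, and it varied least within the groups of the 10 genes. Its estimate was -0.16 ± 0.10 on the log2 scale (SE, adjusted p = 0.349 in edgeR). Relb, the non-canonical partner of p52 (chromosome 7, 19606222 to 19629438, 11 exons), had 18.8, 17.8 and 15.6 CPM in HF_KO, against 20.9, 14.3 and 23.7 CPM in HF_CONT. The HF_CONT libraries enclosed the HF_KO range, and the log2 fold change was -0.17 ± 0.18 (SE, adjusted p = 0.568 in edgeR).

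**Figure D2:**
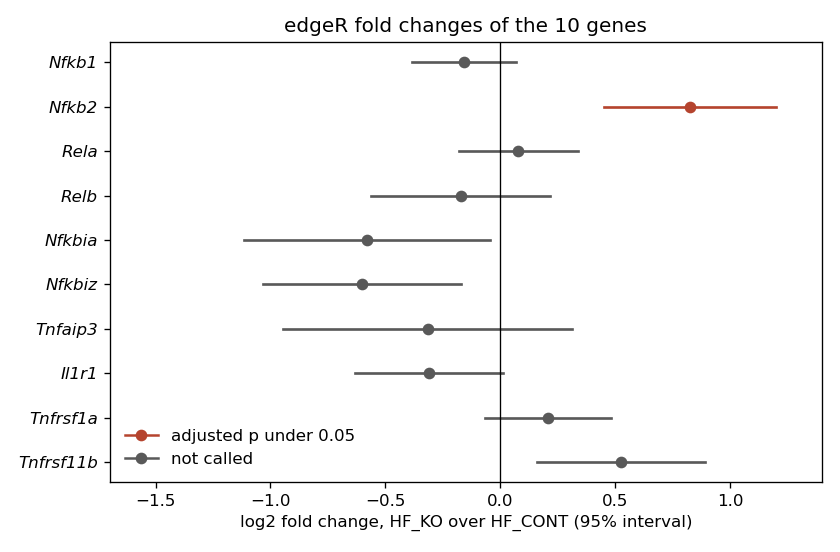
Log2 fold change of HF_KO over HF_CONT (horizontal axis) for the 10 genes, as edgeR estimates (points) with 95% intervals (lines). The interval of Nfkb2, from 0.45 to 1.20, lies farthest from 0, while those of Nfkbiz and Nfkbia, below 0, and of Tnfrsf11b, above 0, also leave out 0 although their adjusted p missed the threshold.

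Ratios of subunits within a library do not depend on how libraries are scaled. The ratio of Nfkb2 to Nfkb1, in counts per length, was 1.63, 1.36 and 1.20 in HF_KO, against 0.868, 0.547 and 0.708 in HF_CONT. Per length, Nfkb2 thus exceeded Nfkb1 in each HF_KO library and was below it in each HF_CONT library. Without the division by length HF_KO replicate 3 had 382 counts of Nfkb2 and 397 of Nfkb1, so the order there rests on the deposited lengths. The mean log2 ratio was higher by 0.997 in HF_KO than in HF_CONT (exact two-sided permutation p = 0.1, the smallest that 3 against 3 libraries allow), and by 0.82 to 1.16 when each library was left out. The ratio of Relb to Rela was 0.220, 0.249 and 0.227 in HF_KO, against 0.299, 0.220 and 0.301 in HF_CONT. These overlapped, with a log2 difference of -0.22 (exact two-sided permutation p = 0.3).

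Over the 5 subunit genes, Rel included, Rela made up the largest part of the summed counts per length, between 58.1% and 63.2% in HF_KO and between 58.8% and 64.0% in HF_CONT. Nfkb2 made up between 11.5% and 12.6% in HF_KO and between 6.40% and 8.50% in HF_CONT. Rel, the subunit best known from lymphoid cells, was the smallest part, with 5.51% or less in every library.

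The feedback inhibitors Nfkbia and Tnfaip3 and the modulator Nfkbiz were not called, and mean CPM was lower in HF_KO than in HF_CONT for all 3. Nfkbia encodes IκBα, the main cytoplasmic inhibitor and a rapid NF-κB target (chromosome 12, 55489409 to 55492647, 6 exons). It had 134.8, 139.8 and 79.1 CPM in HF_KO, against 141.9, 149.6 and 236.8 CPM in HF_CONT. The groups did not overlap, but replicates 1 and 2 of both groups lay close together, and replicate 3 was the lowest HF_KO and the highest HF_CONT library. The log2 fold change was -0.58 ± 0.24 (SE, adjusted p = 0.161 in edgeR). It was -0.36 without HF_KO replicate 3, -0.32 without HF_CONT replicate 3 and 0.04 with the acinar score as a covariate.

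Tnfaip3 encodes A20, a ubiquitin-editing enzyme that shuts off signalling from these receptors (chromosome 10, 19000910 to 19015410, 9 exons). It had 45.3, 55.4 and 22.2 CPM in HF_KO, against 43.1, 44.8 and 65.1 CPM in HF_CONT. HF_KO replicates 1 and 2 were both above HF_CONT replicates 1 and 2, and replicate 3 was again at the extremes. The log2 fold change was -0.32 ± 0.28 (SE, adjusted p = 0.512 in edgeR), and -0.02 without HF_KO replicate 3.

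Nfkbiz encodes IκBζ, an atypical nuclear member that modulates NF-κB targets (chromosome 16, 55811377 to 55838641, 14 exons). It had 51.9, 62.4 and 47.4 CPM in HF_KO, against 96.2, 55.8 and 93.1 CPM in HF_CONT. HF_CONT replicate 2 fell inside the HF_KO range and the other HF_CONT libraries were well above it. The log2 fold change was -0.60 ± 0.19 (SE), with an adjusted p of 0.0852 in edgeR. Nfkbiz passed without HF_CONT replicate 2 (-0.83, adjusted p = 0.0391 in edgeR), with no filter on low counts (-0.62, adjusted p = 0.0415) and in DESeq2 (-0.61, adjusted p = 0.0188).

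IκBα holds RelA dimers in the cytoplasm, so their transcripts were also compared within each library. The ratio of Nfkbia to Rela, in counts per length, was 2.19, 2.73 and 1.604 in HF_KO, against 2.83, 3.20 and 4.20 in HF_CONT. The groups did not overlap, although HF_KO replicate 2 and HF_CONT replicate 1 were close. On the log2 scale the mean ratio was 1.09 ± 0.39 in HF_KO and 1.75 ± 0.29 in HF_CONT (SD, n = 3 each), a difference of -0.66 (p = 0.1 in the exact permutation test, again its minimum). It lay between -0.84 and -0.46 when each library was left out.

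**Figure D3:**
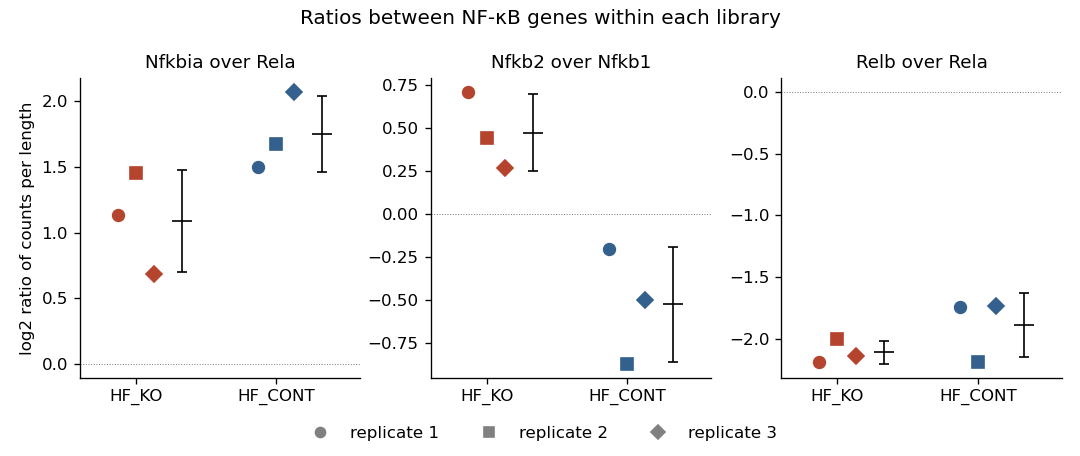
Log2 ratio of counts per length (vertical axis) between pairs of NF-κB genes within each library, HF_KO left in red and HF_CONT right in blue, with the mean and SD in black and a dotted line at equal levels. The Nfkb2 to Nfkb1 ratio lies above 0 in the 3 HF_KO libraries and below 0 in the 3 HF_CONT libraries, and the Relb to Rela ratios overlap.

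HF_CONT replicate 3 was the highest of the 6 libraries for 5 of the 10 genes, namely Nfkb1, Relb, Nfkbia, Tnfaip3 and Il1r1, as it was for 16.8% of all tested genes. HF_KO replicate 3 was the lowest for Nfkbia, Nfkbiz and Tnfaip3, as for 21.2% of all tested genes. HF_CONT replicate 3 also held the least acinar RNA, with 15 markers summing to 989 CPM. These markers lay between 25716 and 29496 CPM in the HF_KO libraries, and their highest HF_CONT sum was 10804 CPM.

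Per length of transcript, Nfkbia, Il1r1 and Rela led the order of levels under both labels. In RPKM (CPM per kilobase), Nfkbia averaged 74.7 ± 21.4 in HF_KO and 111.5 ± 33.4 in HF_CONT (SD, n = 3 each), the highest of the 10. Il1r1 came next, at 66.8 ± 8.52 RPKM in HF_KO and 82.8 ± 11.5 RPKM in HF_CONT, and its range overlapped that of Nfkbia in both groups. Rela was the third, at 34.2 ± 4.15 RPKM in HF_KO and 32.4 ± 3.10 RPKM in HF_CONT, apart from its neighbours in both groups. Tnfrsf1a and Nfkbiz followed, without overlap in HF_KO at 18.0 ± 1.53 and 13.9 ± 1.98 RPKM, and with overlap in HF_CONT at 15.6 ± 2.14 and 21.1 ± 5.80 RPKM.

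At the lower end, Tnfaip3, Relb, Nfkb2 and Tnfrsf11b averaged 8.91, 7.90, 6.83 and 6.61 RPKM in HF_KO, each overlapping the next. In HF_CONT their means were 11.1, 8.91, 3.86 and 4.604 RPKM. Nfkb1 averaged 4.90 ± 0.27 RPKM in HF_KO and 5.47 ± 0.22 RPKM in HF_CONT. It was last in HF_KO with no overlap with Tnfrsf11b above it, and eighth in HF_CONT, where it overlapped Tnfrsf11b and Nfkb2 was last.

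Of 40 further pathway genes of the signalling machinery, all of which were tested, 0 were called in edgeR, beside 6.76% of all tested genes. An unadjusted p under 0.05 was found for 5, beside 26.5% of all tested genes. Limma-voom called 0, beside 6.49% of all tested genes, and DESeq2 called 1, beside 12.4%. That gene was Zc3h12a, a ribonuclease that limits cytokine transcripts, named after its values were seen. Zc3h12a had 5.99 ± 1.91 CPM in HF_KO and 3.33 ± 0.44 CPM in HF_CONT (SD, n = 3 each), with a log2 fold change of 0.85 ± 0.27 (SE, adjusted p = 0.0798 in edgeR), and it was called in edgeR without HF_KO replicate 3 (adjusted p = 0.0495). The median log2 fold change of the 40 was -0.05, with 17 positive and 23 negative values, and groups were apart for 10, beside 32.1% of all tested genes.

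The kinase subunits Ikbkb (-0.20 ± 0.10), Chuk (-0.11 ± 0.14) and Ikbkg (0.02 ± 0.11), given as log2 fold change ± SE, had adjusted p of 0.233 or more in edgeR. Map3k14, which encodes NIK, the kinase upstream of p100 processing, had 2.28 ± 0.74 CPM in HF_KO and 1.34 ± 0.05 CPM in HF_CONT (SD, n = 3 each). Its log2 fold change was 0.76 ± 0.35 (SE, adjusted p = 0.2 in edgeR), and that of Traf3, the adaptor that keeps NIK low, was 0.06 ± 0.13 (SE). Among further inhibitors, Nfkbib (0.12 ± 0.12), Nfkbie (0.02 ± 0.19), the deubiquitinase Cyld (-0.06 ± 0.09) and the A20 partner Tnip1 (0.17 ± 0.11) were not called. The p52 and p50 partner Bcl3 (-0.33 ± 0.14), the ubiquitin ligase Birc3 (-0.38 ± 0.25) and the subunit Rel (-0.07 ± 0.25) were also not called, with adjusted p of 0.164 or more in edgeR.

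Tnfrsf12a, Tnfrsf1b and Il1r2, further cytokine receptors, rose in HF_KO. Of 25 receptors and ligands, 19 were tested, 3 rose, 0 fell and 16 were not called in edgeR, beside 4.14% rising and 2.63% falling over all tested genes. DESeq2 and limma-voom each called 4 rising and 0 falling, beside 12.4% and 6.49% of all tested genes called by them in either direction. No falling gene of this list had an unadjusted p under 0.05. The list median was 0.21 on the log2 scale. This list, like that of the pathway genes, was chosen with earlier results of these data known, so its count is no independent evidence. Tnfrsf12a, the receptor for TWEAK, had 53.5, 28.2 and 55.2 CPM in HF_KO, against 17.0, 11.2 and 8.11 CPM in HF_CONT. All HF_KO libraries were above all HF_CONT libraries, and the log2 fold change was 1.92 ± 0.30 (SE, adjusted p = 0.0131 in edgeR). Its exons share 80 bp with Hcfc1r1 on the other strand, which averaged 959 counts, and reads of the pair cannot be told apart there unless strand was used in counting.

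Tnfrsf1b, the second TNF receptor, found mainly on blood and endothelial cells, had 13.1, 20.0 and 11.1 CPM in HF_KO, against 5.46, 5.58 and 7.48 CPM in HF_CONT. The groups were apart, and the log2 fold change was 1.25 ± 0.23 (SE, adjusted p = 0.021 in edgeR). Il1r2, a decoy receptor that binds interleukin-1 without signalling, had 15.05, 11.7 and 14.3 CPM in HF_KO, against 9.77, 6.58 and 6.76 CPM in HF_CONT. These were apart as well, with a log2 fold change of 0.83 ± 0.18 (SE, adjusted p = 0.0331 in edgeR). The count of 3 was 0 in edgeR without HF_KO replicate 1, 0 without HF_CONT replicate 2 and 5 without HF_CONT replicate 1. Each of these fits had 5 genes with an unadjusted p under 0.05. The 5 called without HF_CONT replicate 1 include the ligand gene Ltb, which passed the filter there through HF_KO alone, so its call is no support. EdgeR called 0 with the acinar score as a covariate (3 unadjusted), and 1 with the macrophage score, Tnfrsf12a, whose log2 fold change there was 5.70.

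With the filter and all libraries, no tested ligand of these receptors was called in edgeR. Il1b, the interleukin-1 ligand of Il1r1, had 15.9 ± 5.56 CPM in HF_KO and 21.2 ± 4.78 CPM in HF_CONT (SD, n = 3 each), with a log2 fold change of -0.41 ± 0.23 (SE, adjusted p = 0.298 in edgeR). Tnf had 2.27 ± 0.21 CPM in HF_KO and 2.28 ± 0.81 CPM in HF_CONT (adjusted p = 0.998 in edgeR, n = 3 each). Il1rap, the co-receptor of Il1r1, had a log2 fold change of -0.18 ± 0.22 (SE). Tnfrsf11a, which encodes RANK, had one of 0.07 ± 0.16 (SE). Tnfsf11, which encodes RANK ligand, the partner of osteoprotegerin, did not pass the filter, with 5, 14 and 5 counts in HF_KO and 1, 0 and 1 counts in HF_CONT.

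Several well-known NF-κB target genes rose in the libraries labelled HF_KO, and 1 fell. Of 34 targets, 27 were tested, 8 rose, 1 fell and 18 were not called, beside 4.14% rising and 2.63% falling over all tested genes. The list median was 0.57 on the log2 scale, with 21 positive and 6 negative values. The list was drawn up with results for Sele and C3 known, so its count is no independent evidence of direction. The 7 untested targets were too low to pass the filter.

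Sele, Vcam1 and Icam1, adhesion molecules for leukocytes, rose. Sele, E-selectin of activated endothelium, had 9.77, 8.32 and 5.69 CPM in HF_KO, against 1.30, 1.42 and 1.34 CPM in HF_CONT, a log2 fold change of 2.55 ± 0.26 (SE, adjusted p = 0.00543 in edgeR). Vcam1 had 13.9, 14.2 and 7.77 CPM in HF_KO, against 3.93, 3.46 and 2.25 CPM in HF_CONT (1.90 ± 0.28, adjusted p = 0.0115 in edgeR). Icam1 had 44.5, 29.3 and 21.6 CPM in HF_KO, against 16.6, 9.63 and 12.8 CPM in HF_CONT (1.29 ± 0.26, adjusted p = 0.0273 in edgeR). For each of the 3 the groups were apart, and HF_KO replicate 3 was the lowest HF_KO library.

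The secreted targets that rose were the complement component C3 (2.23 ± 0.30, log2 fold change ± SE), the cytokine Il6 (1.77 ± 0.28) and the chemokines Ccl2 (1.73 ± 0.31) and Cxcl1 (1.54 ± 0.31). C3 had 40.4 ± 13.5 CPM in HF_KO and 8.65 ± 3.24 CPM in HF_CONT, and Il6 had 5.17 ± 1.28 CPM in HF_KO and 1.52 ± 0.29 CPM in HF_CONT (SD, n = 3 each). Fas, a death receptor (0.90 ± 0.23), also rose, and the transcription factor Irf1 (-1.07 ± 0.25) fell, both named after their values were seen. Irf1 had 75.0, 87.5 and 49.9 CPM in HF_KO, against 99.2, 146.8 and 199.4 CPM in HF_CONT, so that HF_KO replicate 3 was lowest and HF_CONT replicate 3 highest, as for Nfkbia. The mitochondrial enzyme Sod2, with 69.9 ± 3.88 CPM in HF_KO and 75.7 ± 5.09 CPM in HF_CONT (SD, n = 3 each), and the chemokine Cxcl10 (0.32 ± 0.42) were not called.

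**Figure D4:**
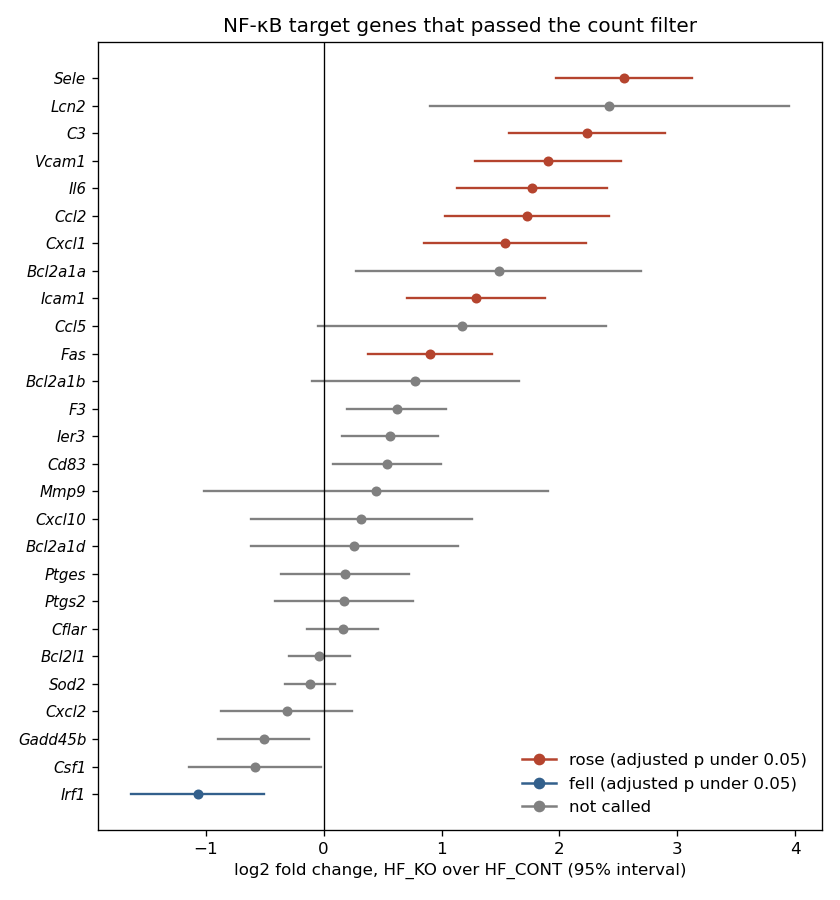
Log2 fold change of HF_KO over HF_CONT (horizontal axis) for the 27 tested NF-κB target genes in order of estimate, with 95% intervals from edgeR. The 8 that rose (red) include Sele at 2.55, and Irf1 at -1.07 (blue) is the 1 that fell.

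Endothelial, macrophage and stromal cells express many of these targets and receptors, and their summed markers were higher in HF_KO. The 10 endothelial markers summed to between 513.6 and 606.1 CPM in HF_KO and between 366.4 and 477.1 CPM in HF_CONT. Of them 8 were higher by mean and 4 rose, beside 4.14% of all tested genes. The 10 stromal markers summed to between 352.5 and 443.4 CPM in HF_KO and between 91.6 and 331.4 CPM in HF_CONT. All 10 were higher by mean and 3 rose, beside the same 4.14%. The 9 lymphocyte markers lay between 12.2 and 88.3 CPM in HF_KO and between 13.2 and 20.6 CPM in HF_CONT, highest in HF_KO replicate 2. Duct markers summed to between 357.6 and 551.4 CPM in HF_KO and between 241.2 and 301.7 CPM in HF_CONT. The 7 markers of α, δ and PP cells summed to between 64351 and 77860 CPM in HF_KO and between 46126 and 63286 CPM in HF_CONT, with 7 of 7 higher by mean. No marker of these lists was at 0 in all 6 libraries.

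Single markers differed widely in fold. The highest of their lists were Vwf of endothelium (3.25), Cd68 of macrophages (3.95) and Dcn (3.91) and Pdgfra (6.40) of stroma. The lowest were Kdr (0.989) and Flt1 (0.994) of endothelium, Csf1r of macrophages (1.26) and Cspg4 of stroma (1.20). All of these were picked for their values. With the acinar or the macrophage score as a covariate, edgeR called 0 targets (11 and 6 unadjusted), and the list median was 0.705 and 0.661 on the log2 scale, beside 0.566 without a covariate. The count of 9 was 2 without HF_KO replicate 1, 2 without HF_CONT replicate 2 and 4 without HF_CONT replicate 3. Since acinar and macrophage marker sums separated the labels, the covariate fits can hardly tell cell content from the label. The part of endothelial, macrophage and stromal cells in the target gene differences was not tested.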

How the data were processed

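RNA from isolated islets was copied with poly-dT priming and SMART-Seq v4 chemistry and sheared for Ion Plus libraries, per the labels' protocols. The deposited table holds raw counts per gene for 6 libraries and summed exon lengths in bp (another unit), per the file headers. STAR 2.4.2a, featureCounts, Subread 1.5.0, edgeR and mm10 are named in the submitters' processing notes; annotation, strand and multi-mapping settings are not stated there. Unless strand was used, reads of overlapping genes cannot be separated.

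Counts were tested over the whole table in edgeR 4.0.16 (R 4.3.3) with TMM factors, the default expression filter and quasi-likelihood fits with group as the only term. P-values were adjusted by Benjamini-Hochberg over all 13736 tested genes, with a threshold of 0.05. Of 24421 rows, 6405 had no count and 27 had date-like identifiers, which stayed in the fit. RPKM is CPM per kilobase of deposited length. Within-library ratios used an offset of 0.5 counts and exact two-sided permutation tests. The fit was also run on counts simulated from its own model, which does not show how well that model suits these libraries. Replicate pairs differed by more than counting noise (chi-square per degree of freedom of 10.8 or more). The members and lists were chosen with earlier results of these data known. Named genes were Dhps, the 10 members, up to 6 called genes of smallest p per list and a fixed set; others are marked. Alternatives were RLE and upper-quartile factors, other filters, DESeq2 1.42.0, limma-voom (limma 3.58.1), a replicate block, a table without acinar and hormone genes, acinar or macrophage score covariates, and leaving out each library. Overlaps used GenomicRanges 1.54.1, and promoter sequences are RefSeq's.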

Additional observations from a re-analysis of the deposited data

How the results depend on the processing

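Across the 16 alternatives Nfkb2 stayed positive and was called in 10, and Nfkb1, Il1r1 and Nfkbiz stayed negative and Tnfrsf1a and Tnfrsf11b positive in all 16. Signs turned, without a call, for Rela with the macrophage score as a covariate (-0.0705) and without HF_KO replicate 1 (-0.0259, in a range up to 0.143 over the libraries left out), and with the acinar score for Relb (0.134), Nfkbia (0.0358) and Tnfaip3 (0.186); the cause was not tested. Over all genes the 929 calls were 1413 with no filter on low counts and 1702 in DESeq2, against 0 with the acinar score (1340 at an unadjusted p under 0.05) and 1 with the macrophage score. They were 64 to 968 when each library was left out. Of the 10 genes, 2 were called with no filter and 3 in DESeq2, 0 with the acinar score (1 unadjusted) and 0 with the macrophage score (3 unadjusted), and 0 to 2 with each library left out. Called genes of the 40 further pathway genes were 1 in DESeq2 and 0 to 1 with each library left out. Receptors and ligands called were 5 with no filter, 0 with the acinar score, 1 with the macrophage score and 0 to 5 with each library left out. The 5 with no filter and the 5 without HF_CONT replicate 1 both include Ltb. Targets called were 0 with either score and 2 to 11 with each library left out. Leaving out each library gave -0.13 to -0.04 for Dhps and -0.37 to -0.15 for the Relb to Rela log2 ratio.

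Replicate numbers are shared between the titles, but same-numbered libraries did not deviate together (correlations of -0.04, -0.01 and 0.05 over 13736 genes). With a replicate block edgeR called 826 genes, 685 of them among the 929, Nfkb2 again (0.84, adjusted p = 0.0259), and 9 targets rising with 0 falling. Irf1 and Fas were not called there. F3 and Lcn2, named after their values were seen, were called. For the Nfkb2 to Nfkb1 log2 ratio the block gave 0.997 with an exact sign-flip permutation p of 0.25, the smallest possible.

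The 3 libraries per group limit the precision: the 95% intervals of Relb and Tnfaip3 reached from -0.56 to 0.22 and from -0.95 to 0.31 on the log2 scale. With the macrophage score the estimates for Nfkbia and Tnfaip3 were -2.67 and -2.68, without a call. The summed markers of both scores separated the labels, so fits with a score can hardly tell cell content from the label.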

Other observations

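The lymphotoxin genes, ligands of the receptor that feeds the non-canonical branch, did not pass the filter on low counts over the 6 libraries and are named after their values were seen. Ltb had 9, 75 and 24 counts in HF_KO and 9, 0 and 0 counts in HF_CONT, and Lta had 0, 13 and 1 counts in HF_KO and 1, 0 and 0 counts in HF_CONT. With no filter edgeR called Ltb higher in HF_KO (adjusted p = 0.0419). Without HF_CONT replicate 1 its HF_CONT counts were 0 and 0, so Ltb passed the filter through HF_KO alone. The edgeR call there (adjusted p = 0.0373) is no further support. Ltb and Lta were highest in HF_KO replicate 2, the library with the most lymphocyte marker RNA.

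Profiles over the 6 libraries were compared by the root mean square difference of centred log2 CPM, among 8279 candidate genes. Closest to Rela were Riok1 (0.0264), Utp18 (0.0438) and Rbm33 (0.0476). Closest to Nfkbia were Arid5a (0.135), Mfsd6l (0.141) and Rhbdl3 (0.144), and among the 10 genes the closest to Nfkbia was Tnfaip3 (0.178).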
